A study of Harpegnathos saltator with 37 samples.

Results

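In central brains of the ant Harpegnathos saltator, 119 of 14001 genes formed the group that was higher in hunting workers than in dominant gamergates at day 120 in 1 sequencing run. A gene belonged to it when the mean of the 5 hunting worker libraries of run 4 was at least 3 FPKM (fragments per kilobase, scaled to library size) and at least 1.4 times the mean of the 5 gamergate libraries of that run. Every one of these 5 hunting workers also had to exceed the median of the 5 gamergates. Of 7655 genes at the minimum level, 200 met the ratio and 121 also met the condition on each library, and 2 of these were left out by the rule. The members were thus chosen by the FPKM values of the day 120 libraries of run 4, and those values describe the group and test nothing. All the other libraries took no part in the choice, and each test below compares only those.

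Harpegnathos workers can turn into gamergates, which mate and lay eggs while keeping a worker body, after winning dominance duels in a colony that has lost its queen. Nestmates that lose remain workers and go out to hunt. The brain changes with this switch are studied because both castes come from the same genome and the same kind of adult. In insects, circulating insulin-like peptides and brain neuropeptides link feeding and reproductive state to behaviour, and several of the named genes belong to these systems.

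Per the labels, callow females 5 days old were moved in sets of 25, each with 3 males, into nests that held neither a queen nor a gamergate. All adult groups went through this isolation, and the labels name no genotype or drug. Day 10 workers (4 libraries) were compared with dueling ants (5 libraries) from run 2. Day 20 workers (4) were compared with day 20 gamergates (5) from run 5. Day 120 hunting workers numbered 4 in run 1 and 5 in run 4, and day 120 dominant gamergates numbered 1 in run 1 and 5 in run 4. Hunting was scored after day 100, and the day 120 gamergates were recognised by mature oocytes. Late pupae (4 libraries) made up run 3, with no caste or age given. The tissue was the central brain, dissected free of optic lobes and gnathal ganglion and of some 95% of antennal lobe tissue. The labels state neither how many brains made a library nor which nest each came from, so each p-value reflects spread among these libraries alone, and that spread may be technical. In such bulk tissue fewer cells of a type and less RNA per cell cannot be told apart.

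Depth ranged from 9.20 to 55.78 M reads per library. The 12 neuron list genes and the 13 glia list genes were all above 0 at day 120 in run 4. Their summed levels overlapped between castes, at 768 to 953 FPKM in hunting workers and 810 to 858 in gamergates for neurons. One library stood apart for the group described here. The median gene of the 119 was 0.69 log2 units above its mean over all 37 libraries in hunting worker replicate 7, against -0.21 to -0.03 in the other 4 hunting workers of run 4 and -0.62 to -0.45 in the 5 gamergates. Of the 119 genes, 96 had their highest hunting worker value of run 4 in replicate 7, a share of 80.7%, beside 37.7% of all tested genes. Counts over the 119 in the comparisons below are therefore also given for the members that met the rule without that library.

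Most members were only moderately higher in hunting workers. The median ratio of the means was 1.57, and 21 members had a ratio of at least 2. The median hunting worker mean was 10.4 FPKM, the highest was 2037 FPKM for LOC112588553, and 56 members had a mean under 10 FPKM. In 31 members every hunting worker of run 4 exceeded every gamergate, which was so for 1.68% of all tested genes and follows in part from the rule. Just inside the ratio lay LOC105189128 and LOC105187690, both at 1.401, and LOC105190105 at 1.403. Just outside lay LOC105187409, whose ratio rounds to 1.4, LOC105183984 at 1.399 and Dbct at 1.398. The reverse rule, with gamergates higher, gave 88 genes.

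The reference paired 23 members with a symbol and 96 with a LOC number alone. By biotype 104 were protein-coding, 12 were long non-coding RNAs and 3 were pseudogenes. Long non-coding RNAs made up 10.1% of the members and 5.47% of the tested genes. All 119 members passed the filter on low values, an FPKM of at least 1 in at least 4 of the 37 libraries, as did 9986 genes in all.

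The group fell into sets of 49 and 70 genes by whether the rule still held on the other 4 hunting workers, a division made after the values had been seen. Without replicate 7 the rule gave 52 genes, of which 49 were among the 119, or 41.2% of the members and 94.2% of the shorter list. Among the 49 were ImpL2, CCHa1, Pdf, KFase, Qbp-1, Tsp, Lop2, Echs1 and myd. The other 70 included RpL39, Rpb12, the respiratory chain genes UQCR-Q, UQCR-6.4, ox and Ndufb2, and also Hexo1, MFS3, GXIVsPLA2, P5CS, Rab23, scu, dcma and sloth2. All 70 were highest in replicate 7, as their dependence on it requires. The median ratio was 1.7 in the 49 and 1.49 in the 70.

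**Figure D1:**
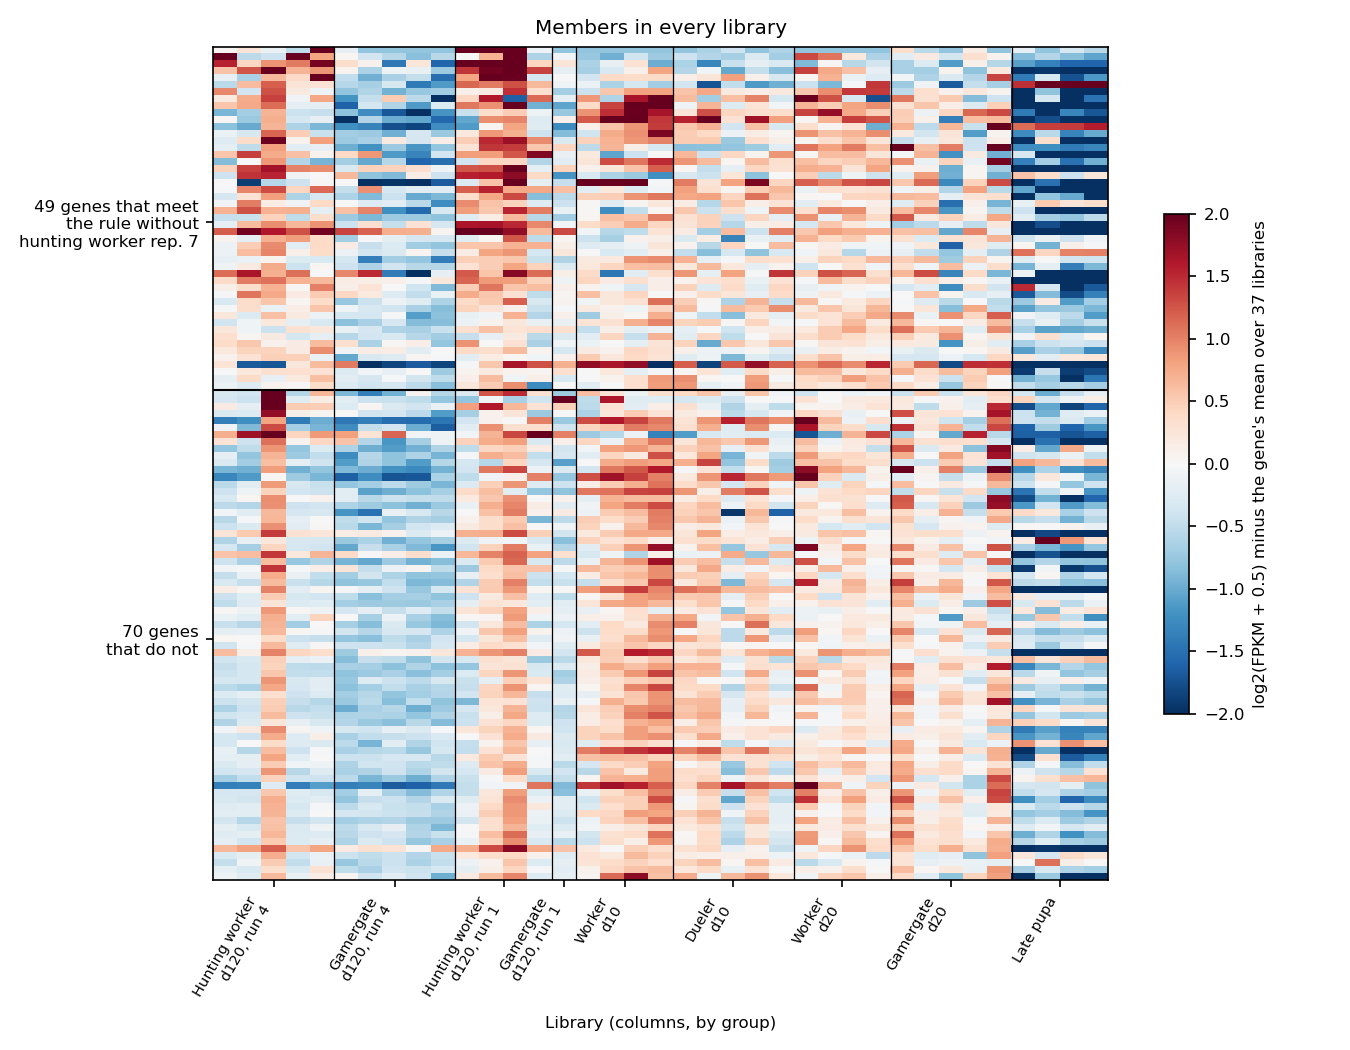
Each row is 1 of the 119 members and each column 1 of the 37 libraries, in groups separated by vertical lines. Colour gives log2(FPKM + 0.5) minus the gene's mean over all libraries, limited to 2 in each direction. The line across separates the 49 genes that met the rule without hunting worker replicate 7 (column 3 of the 5 on the left) from the 70 that did not. Below the line that column is red and the other 4 hunting workers of run 4 are pale, and the pupae on the right are blue in most rows.

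ImpL2 (LOC105183446) led the named members with a mean of at least 10 FPKM. In Drosophila its product is a secreted protein that binds insulin-like peptides. In run 4 it was at 31.4, 12.1, 39.1, 18.0 and 14.96 FPKM in hunting worker replicates 5 to 9, and at 8.95, 10.3, 7.98, 9.14 and 9.63 in gamergate replicates 2 to 6. Every hunting worker lay above every gamergate. In run 1, which did not enter the choice, the 4 hunting workers were at 17.1, 18.1, 44.4 and 20.3 FPKM and the single gamergate at 9.69. All 4 again exceeded the gamergate, by 1.21 log2 units (SE 0.54, adjusted p = 0.9 with limma). At day 20 the workers were at 23.4, 30.8, 43.2 and 42.9 FPKM and the gamergates at 10.9, 20.3, 16.8, 18.7 and 16.6. These groups did not overlap either, yet the difference of 1.03 (SE 0.33) did not pass after adjustment over all genes. At day 10 the castes overlapped, with 11.7, 23.4, 28.3 and 28.01 FPKM in workers and 23.9, 27.6, 18.0, 17.4 and 18.1 in duelers, a difference of 0.06 (SE 0.33). Pupae were at 3.43, 8.89, 2.39 and 2.88 FPKM, below every adult library except 1 gamergate of run 4 at 7.98, and the fall against day 10 workers passed the test (log2 difference -2.34, SE 0.34, adjusted p = 1.13e-06).

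CCHa1 and Pdf were the 2 members among 27 tested genes of the list of neuropeptides and their receptors. CCHa1 (LOC105181279) encodes the CCHamide-1 neuropeptide. It was at 3.28, 2.82, 8.79, 5.33 and 2.53 FPKM in hunting workers of run 4 and at 2.06, 1.99, 1.63, 2.77 and 1.98 in gamergates. In run 1 the 4 hunting workers, at 4.26, 7.02, 6.26 and 2.60 FPKM, all exceeded the gamergate at 1.77. The day 20 workers, at 7.21, 5.69, 6.13 and 7.35 FPKM, all exceeded the gamergates at 4.22, 2.68, 4.42, 1.41 and 3.85. At day 10 the workers spanned the duelers, at 2.64, 6.42, 7.29 and 14.7 FPKM against 5.34, 4.97, 3.31, 4.09 and 3.77. The log2 differences were 1.21 (SE 0.56) in run 1, 0.97 (SE 0.33) at day 20 and 0.59 (SE 0.33) at day 10. None passed after adjustment.

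Pdf (LOC105187408) encodes pigment-dispersing factor, the neuropeptide that circadian clock neurons release. It varied widely within every group. Hunting workers of run 4 were at 8.23, 12.4, 19.4, 6.88 and 12.8 FPKM and gamergates at 2.88, 5.06, 10.5, 4.90 and 0.905. In run 1 the hunting workers, at 9.78, 23.1, 1.99 and 16.6 FPKM, lay on both sides of the gamergate at 6.37. The difference there was 0.55 with an SE of 1.17, and at day 10 it was 0.85 with an SE of 0.70. The day 20 workers at 29.8, 18.1, 5.69 and 1.78 FPKM enclosed the gamergates, whose range was 3.73 to 15.5. No caste difference outside run 4 exceeded the spread between libraries for this gene. Pupae were lower than day 10 workers by the test (-2.96, SE 0.74, adjusted p = 0.00112).

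KFase (LOC105184489) is kynurenine formamidase by its symbol, an enzyme of tryptophan breakdown. It was at 20.1, 31.2, 45.4, 16.5 and 20.3 FPKM in hunting workers of run 4 and at 16.4, 13.6, 18.9, 12.5 and 13.4 in gamergates. In run 1 the values were 32.8, 44.0, 64.1 and 13.9 FPKM in hunting workers and 17.4 in the gamergate, so 1 hunting worker was below it. The castes were level at day 10, at 35.5 to 53.6 FPKM in workers and 34.4 to 54.8 in duelers (difference 0.00, SE 0.32). At day 20 workers ranged from 25.7 to 34.6 FPKM and gamergates from 22.3 to 39.98, also without separation. Pupae, at 4.69 to 14.5 FPKM, were lower than day 10 workers (log2 difference -2.27, SE 0.34, adjusted p = 1.26e-06).

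Qbp-1 (LOC105184196) was the most abundant member with a symbol in run 4. It was at 227, 261, 335, 135 and 136 FPKM in hunting workers there and at 49.9, 121, 102, 70.1 and 128 in gamergates, with no overlap. In run 1 the hunting workers were at 321, 293, 756 and 79.5 FPKM and the gamergate at 73.8, a difference of 1.89 (SE 0.69). Day 10 workers were at 201, 396, 654 and 637 FPKM and duelers at 145, 246, 128, 186 and 149, a difference of 1.36 (SE 0.41). One of the 4 workers lay within the range of the duelers. At day 20 the values were 247, 218, 267 and 295 FPKM in workers and 191, 227, 169, 127 and 214 in gamergates. The worker side was higher in all 3 of these comparisons, and none passed after adjustment (adjusted p = 0.784 at day 10). Pupae, at 24.0, 37.9, 19.8 and 17.1 FPKM, were far lower than day 10 workers (-4.15, SE 0.44, adjusted p = 2.26e-09).

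The fifth of these named members was sloth2 (LOC109504554), in Drosophila a small protein needed to assemble respiratory complex III. In run 4 hunting workers were at 23.2, 29.6, 62.3, 27.3 and 25.0 FPKM and gamergates at 19.7, 21.1, 23.7, 20.8 and 17.8. Apart from replicate 7, at 62.3, the hunting workers lay between 23.2 and 29.6, next to the highest gamergate at 23.7. The run 1 hunting workers, at 28.2, 47.8, 63.3 and 28.4 FPKM, exceeded the gamergate at 25.6. Values at day 10 were 37.3 to 72.8 FPKM in workers and 26.9 to 49.7 in duelers, and at day 20 they were 28.8 to 50.4 in workers and 33.1 to 53.6 in gamergates, with overlap at both ages.

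**Figure D2:**
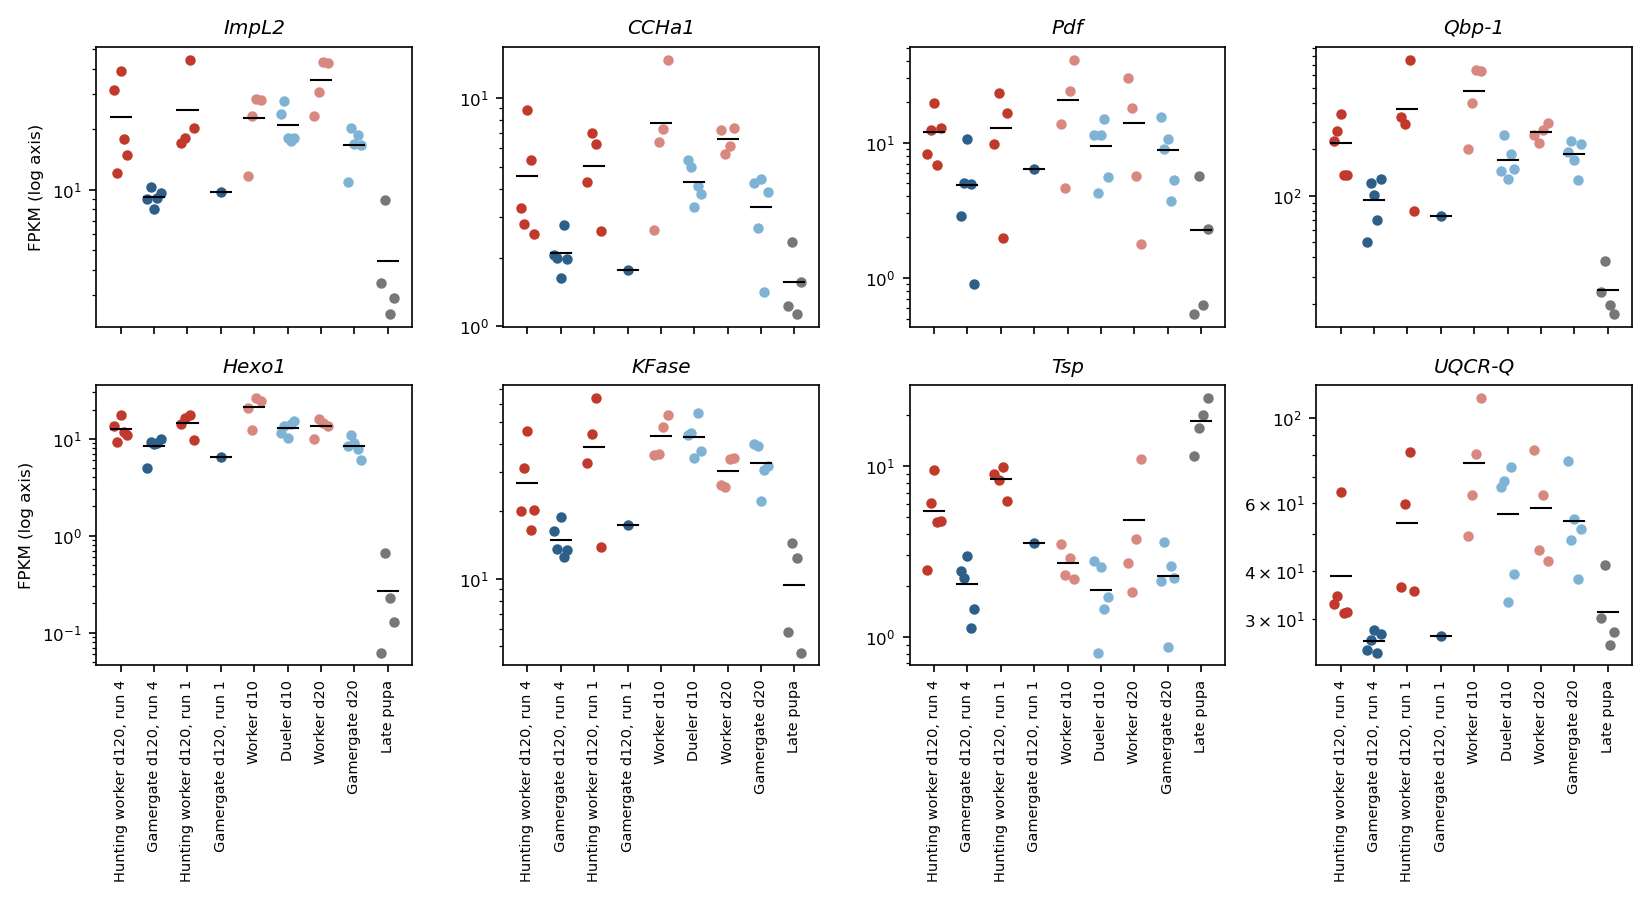
FPKM on log axes of 8 named members in the 9 groups. Points are libraries and bars are group means (n = 5, 5, 4, 1, 4, 5, 4, 5 and 4 from left to right). Red points are workers, blue points are reproductive or dueling ants and grey points are pupae. ImpL2 and CCHa1 separate the castes at day 20 as well as at day 120 in run 1, Pdf overlaps in these, and Tsp alone of the 8 is highest in pupae.

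The 4 hunting workers and 1 gamergate of run 1 show the members at the same age in libraries that the rule did not read. Of the 119 members, 113 were higher in the hunting workers, at a median log2 difference of 0.55, beside 50.5% of all tested genes and a median of 0.01. In 67 members all 4 hunting workers exceeded the gamergate, including ImpL2, CCHa1, Qbp-1, Tsp, Hexo1 and MFS3, where 21.7% of all tested genes did so. In 2 members all 4 were below it, against 19% of all tested genes. No member passed the adjusted threshold of 0.05 with limma, beside 0% of all tested genes higher and 0.02% lower, where the single gamergate library was assumed to vary like the others. The lowest adjusted p was 0.431, for a member that was lower. Before adjustment 17 members were higher and 1 was lower at 0.05, beside 1.51% and 1.58% of all tested genes. The test on recovered reads (limma-voom) called 1 member, which was lower.

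The member with the lowest adjusted p went the other way in run 1. LOC112590104, a long non-coding RNA named here after its values were seen, was at 1.91 to 3.50 FPKM in the hunting workers and 17.2 in the gamergate. In run 4 its hunting worker mean of 6.55 ± 7.70 FPKM (SD, n = 5) rested on replicate 7 at 20.3, with the other 4 at 2.56 to 4.09, against 2.51 ± 0.404 in gamergates (n = 5). It was also the only member called between the run 1 gamergate and the day 10 duelers, where 0.531% of all tested genes were called higher and 0.571% lower. It was at 2.58 to 3.63 FPKM FPKM in the duelers (log2 difference 2.32, SE 0.60, adjusted p = 0.0498). Before adjustment 2 members were higher and 20 lower at 0.05, beside 6.74% and 6.67% of all tested genes. That call rests on 1 gamergate library, and no member was called when any 1 dueler was left out.

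Hunting workers of run 1 also differed among themselves. The median member was -0.03, 0.48, 0.76 and -0.12 log2 units from its mean in replicates 1 to 4, against -0.24 in the gamergate. Replicate 3 held the highest hunting worker value for 87 of 119 members, or 73.1%, beside 38.6% of all tested genes. Without it 104 members were still higher in hunting workers, at a median of 0.39. The 49 members that met the rule without replicate 7 were higher in 46 cases, with a median of 0.70, and the other 70 in 67 cases, with a median of 0.53.

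At day 10, the worker side was higher for 97 of 119 members, at a median log2 difference of 0.33, where 51.2% of all tested genes were higher. On the TPM scale, which moved the median of all genes by -0.24, 70 members were higher and the median was 0.05, or 0.29 above that of all genes. The median was 0.21 without worker replicate 4, the lowest value with 1 library left out, and 0.42 without worker replicate 1, the highest. No member passed adjustment with limma, beside 0.02% of all tested genes higher and 0.01% lower, and the lowest adjusted p was 0.367. Before adjustment 12 members were higher and 0 lower at 0.05, beside 2.2% and 2.94% of all tested genes, and limma-voom also called 0. In 2 members every worker exceeded every dueler, and in 0 every worker was below, beside 1.02% and 1.48% of all tested genes. One was myd (LOC105187503), at 30.1, 24.5, 27.7 and 25.4 FPKM in workers and 17.5, 19.4, 10.9, 17.6 and 15.57 in duelers, a difference of 0.74 (SE 0.18). The other members overlapped, Qbp-1 and the ribosomal gene RpL39 (0.63, SE 0.31) among them. Workers were higher in 65 of the 70 members that depended on replicate 7 and in 32 of the 49 that did not, with medians of 0.34 and 0.15.

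At day 20, the members divided evenly between castes. Workers were higher for 59 members, or 49.6%, beside 50.9% of all tested genes, with a median difference of 0.00, and of -0.041 to 0.095 with 1 library left out. With limma 0 members passed adjustment, 10 were higher and 0 lower at 0.05 before it, beside 1.15% and 0.941% of all tested genes, and limma-voom called 0. Of the 49 genes, 36 were higher in workers, at a median of 0.31, against 23 of the other 70, at a median of -0.05. In 4 members every worker exceeded every gamergate, beside 0.28% of all tested genes, and ImpL2 and CCHa1 were among them. Hexo1 (LOC105184376), a hexosaminidase by its symbol, was higher by 0.65 (SE 0.23), at 9.83, 16.1, 14.4 and 13.5 FPKM in workers and 8.40, 10.9, 8.98, 7.82 and 6.03 in gamergates, with 1 worker inside the range of the gamergates.

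The 3 caste comparisons outside run 4 share no library. A total of 42 members, or 35.3%, were higher on the worker side in all of them, beside 13.8% of all tested genes. They were 21 of the 49 and 21 of the other 70. Among them were Hexo1, whose differences were 1.07 in run 1, 0.64 at day 10 and 0.65 at day 20, CCHa1, Tsp and Qbp-1. LOC105184803, which the files do not name, was higher by 1.02, 0.81 and 0.76. In run 4 its castes overlapped, at 6.09 to 24.0 FPKM in hunting workers and 4.00 to 23.9 in gamergates. Its highest gamergate there, replicate 2, was also the highest run 4 library for the opsin Lop2, at 36.98 FPKM. Both genes were lowest among day 10 workers in replicate 4, at 23.3 and 3.99 FPKM. The cells behind the LOC105184803 values were not tested. Whether the caste difference was larger at day 120 was tested too. The change of the caste difference between day 10 and day 120 in run 1 was tested as an interaction. With limma 0 members passed, 7 were higher and 2 lower before adjustment at 0.05 (0.921% and 0.891% of all tested genes), limma-voom called 0, and the median change was 0.24. That median was 0.10 without hunting worker replicate 3, with 71 members above 0, 0.14 without day 10 worker replicate 1 and 0.40 without day 10 worker replicate 4. It was 0.45 on the TPM scale, where the median of all genes was 0.18, and 0.52 in the 49 genes.

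**Figure D3:**
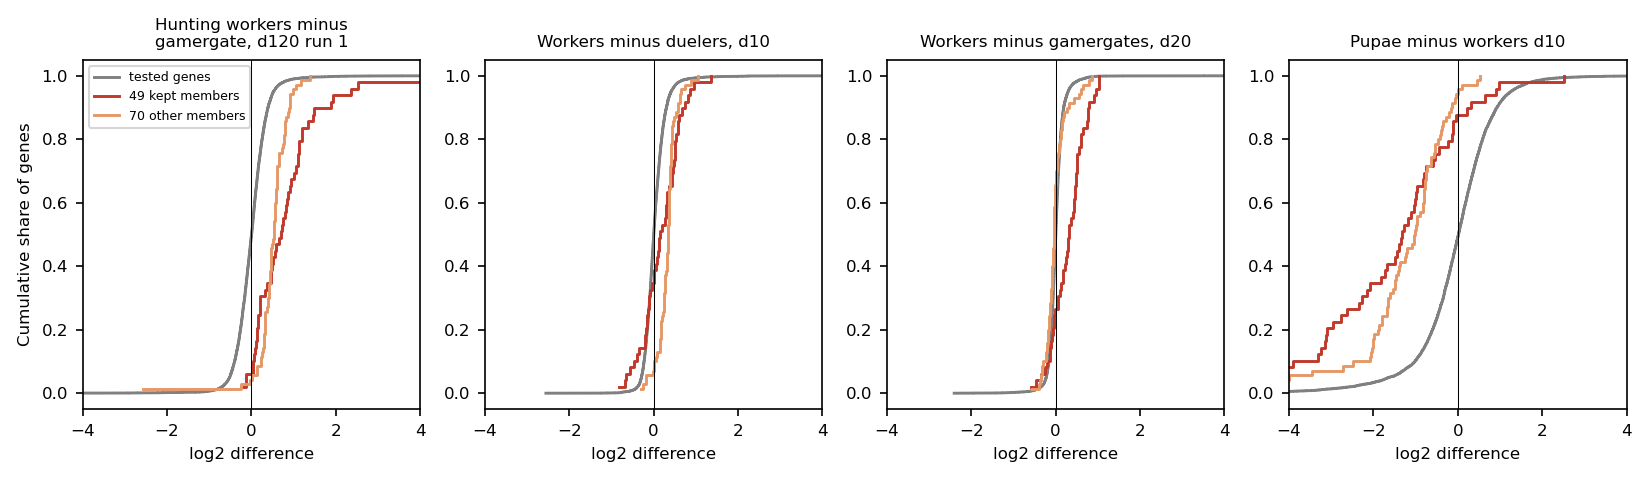
Cumulative share of genes (vertical axis) by fitted log2 difference (horizontal axis, limited to 4 in each direction) in 4 comparisons that the rule did not use. Grey is all tested genes, red the 49 members that met the rule without replicate 7 and orange the other 70. At the median both coloured curves lie to the right of grey in run 1 and at day 10, the red one does so at day 20, and both lie to the left in pupae.

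Of 56 tested genes of oxidative phosphorylation, 4 were members: UQCR-Q, UQCR-6.4 and ox, subunits of complex III, and Ndufb2, a subunit of complex I. UQCR-Q (LOC105181159) was at 32.7, 34.4, 64.1, 31.1 and 31.3 FPKM in hunting workers of run 4 and at 24.9, 26.4, 28.1, 24.5 and 27.3 in gamergates. In run 1 it was at 36.3, 59.6, 81.5 and 35.5 FPKM against 27.1. At day 20 the workers, at 82.5, 45.3, 63.0 and 42.4 FPKM, and the gamergates, at 77.0, 48.2, 54.6, 38.1 and 51.5, overlapped throughout. The whole list was higher in hunting workers by a median of 0.29 in run 4 and 0.51 in run 1, by 0.25 in workers at day 10 and by 0.00 at day 20, where the median of all genes was between 0.00 and 0.01. On the TPM scale the day 10 median turned to -0.03, beside -0.24 for all genes, and the run 1 median was 0.44. No gene of the list passed in a caste test. The shift was not particular to this list. Proteasome genes, none of them members, were higher by a median of 0.20 in run 4 and 0.46 in run 1. Mitochondrial ribosomal genes, also without a member, were higher by 0.18 and 0.38. Some lists went the other way, such as axon guidance at -0.17 and -0.26. RpL39, a protein of the large ribosomal subunit, was the single member among 60 cytosolic ribosomal genes. It was at 110, 103, 276, 127 and 139 FPKM in hunting workers of run 4 and 90.9, 99.7, 114, 102 and 108 in gamergates.

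Members were short. The median counted length was 2312 bp, against 4120 bp for tested genes, and 55 members, or 46.2%, were under 2000 bp, against 17.5%. The median was 2772 bp in the 49 and 1848 bp in the 70. Short genes outside the group moved between libraries in the same places. Over 494 tested genes under 1000 bp that were no members, the median deviation was 0.12 in hunting worker replicate 7 and -0.15 to -0.02 in the other 4 of run 4, and 0.15 in replicate 3 of run 1 against -0.13 to 0.07 in the other 3. Of all 2228 tested genes at or under 2312 bp, 67.3% were higher in hunting workers in run 1 and 65.4% in workers at day 10, against 45.7% and 47.2% of longer genes. Members above that length were higher in 57 of 59 cases in run 1 and in 42 of 59 at day 10. The part of counted length in these differences was not tested further.

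**Figure D4:**
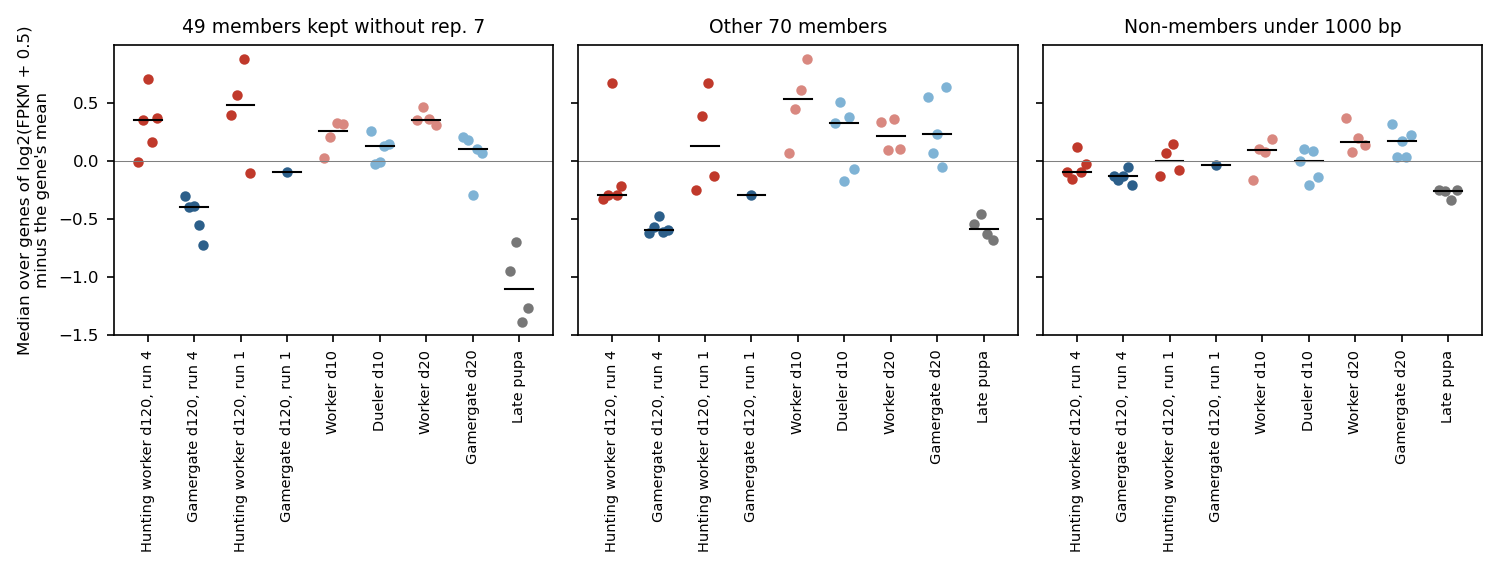
Median over genes of log2(FPKM + 0.5) minus each gene's mean, 1 point per library and 1 bar per group median, for the 49 members, the other 70 and non-members under 1000 bp. In the left panel 4 of 5 hunting workers of run 4 lie above 0 and all 5 gamergates lie below -0.30. In the middle panel replicate 7 lies at 0.67 and the other 4 hunting workers between -0.33 and -0.21.

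The age comparison called 18 members. Against day 10 workers, hunting workers of run 1 were higher in 11 members and lower in 7, where 5.92% and 4.96% of all tested genes were called. The split was 26 and 5 on the TPM scale, which moved the median of all genes by 0.37, 13 and 4 after quantile normalization, 19 and 6 with limma-voom, and 13 and 30 with array weights, where the lower calls were the more numerous. Age, hunting and run cannot be told apart here, and the comparison shares its hunting workers with the run 1 caste comparison. Among the 49 genes that met the rule without replicate 7, 9 were higher and 3 lower by the test, 30 lay above 0 and the median difference was 0.12. The other 70 had 11 above 0 and a median of -0.37. Among the higher members were Tsp (LOC105181268), a thrombospondin of the extracellular matrix, and P5CS, an enzyme of proline synthesis. In run 4 Tsp was at 2.46, 6.10, 9.42, 4.68 and 4.78 FPKM in hunting workers and 2.42, 2.21, 2.97, 1.12 and 1.47 in gamergates. It was at 9.03, 8.33, 9.90 and 6.28 FPKM in run 1 and at 3.48, 2.29, 2.88 and 2.18 in day 10 workers, without overlap (log2 difference 1.47, SE 0.38, adjusted p = 0.0105). P5CS rose by 1.13 (SE 0.26, adjusted p = 0.00357), from 2.77 to 4.95 FPKM in day 10 workers to 7.30 to 10.7 in run 1.

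Unnamed members made up the rest of the calls. LOC105189251 was at 2.80, 4.82, 9.66, 3.06 and 3.58 FPKM in hunting workers of run 4 and 1.83, 0.935, 1.56, 1.51 and 0.844 in gamergates. It was at 5.45, 7.96, 9.76 and 5.15 FPKM in hunting workers of run 1, at 1.43 in their gamergate and at 0.894, 1.29, 1.87 and 3.33 in day 10 workers. The rise over day 10 workers passed (1.75, SE 0.33, adjusted p = 0.000545), and its caste difference of 1.93 (SE 0.52) in run 1 did not. LOC105191843 was at 25.2, 25.8, 23.3 and 15.8 FPKM in hunting workers of run 1 against 7.57 in the gamergate, and at 10.3, 11.3, 13.6 and 10.7 in day 10 workers. In run 4 it was at 6.94, 12.5, 15.4, 12.8 and 15.1 FPKM against 5.73, 9.92, 5.50, 9.76 and 6.11, so hunting workers of the 2 runs differed in level. LOC105186981 rose over day 10 workers by 1.51 (SE 0.45, adjusted p = 0.0246), at 3.76, 3.798, 5.15 and 8.10 FPKM against 2.25, 0.655, 1.27 and 1.88. Day 10 duelers were at 3.31, 1.304, 2.68, 2.03 and 3.94 FPKM. In run 4 the castes overlapped for this gene. Hunting workers there were at 3.025, 5.70, 3.52, 3.115 and 2.01 FPKM and gamergates at 2.64, 3.86, 0.598, 0.455 and 1.34.

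Other members were lower at day 120 than in young workers although they were higher in hunting workers than in gamergates by the rule. Of those described here, only LOC105183872 met the rule without hunting worker replicate 7. LOC105183872 was at 23.1, 34.8, 49.5 and 39.3 FPKM in day 10 workers and at 8.82, 15.7, 17.3 and 11.3 in run 1 hunting workers (-1.43, SE 0.35, adjusted p = 0.00729). Duelers at day 10 were at 14.7, 30.6, 16.6, 15.5 and 15.7 FPKM. LOC105186275 fell from 7.87, 8.09, 9.79 and 9.91 FPKM to 4.77, 5.58, 2.95 and 1.87 (-1.22, SE 0.31, adjusted p = 0.00815). LOC112590528 and the pseudogene LOC112588468 fell together from 22.5 to 32.2 FPKM and from 12.3 to 20.1 FPKM in day 10 workers to 6.70 to 20.7 and 3.99 to 12.3 in run 1. Both were highest in day 20 worker replicate 1, at 57.97 and 29.01 FPKM. Whether reads were divided between the pseudogene and similar genes in counting was not tested, and these values remain uncertain.

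The 3 unnamed members with the largest ratios were uneven among libraries. LOC105182112 was at 0.399, 0.537, 0.285, 0.110 and 18.3 FPKM in hunting workers of run 4, so 1 library carried its mean, and it had 3 reads in all in the 5 gamergates. It was at 2.98, 58.3, 29.3 and 0.303 FPKM in run 1 and had 0 reads in all 4 workers at day 10 and all 4 at day 20. Duelers at day 10 were at 0 to 0.1466 FPKM, day 20 gamergates at 0 to 0.5995 and pupae at 0 to 0.2574. At days 10 and 20 its few reads thus lay only in duelers and gamergates, the side opposite to the rule. LOC109503743 was at 13.1, 0.222, 0.274, 7.51 and 1.29 FPKM against 0.0780 to 0.567 in gamergates, a ratio of 16.7. In run 1 its hunting workers, at 0.540, 1.18, 6.02 and 0.175 FPKM, lay on both sides of the gamergate at 0.493. LOC105187761 was at 3.88, 1.52, 2.30, 2.60 and 5.21 FPKM against 0 to 1.42, and at 7.26, 17.1, 26.6 and 1.53 in run 1 against 1.30 in the gamergate. In young workers it stayed low, at 0.257 to 1.34 FPKM at day 10 and 0.318 to 1.04 at day 20.

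Across all groups, the median of the 119 relative to young workers depended on the scaling and on which members were counted. Relative to the day 10 worker means the median member was at -0.33 log2 units in duelers, -0.20 in day 20 workers and -0.23 in day 20 gamergates. Hunting workers were at -0.27 in run 1 and -0.40 in run 4, and gamergates at -0.73 in run 1 and -0.98 in run 4, all on the FPKM scale. In the fitted comparison of run 1 hunting workers with day 10 workers the median was -0.25, with 41 members above 0. It turned to 0.14 with 79 above 0 on the TPM scale, where the median of all genes was 0.37, and was -0.03 with limma-voom, where that of all genes was 0.24. It was also above 0, at 0.12, in the 49 genes. Of the 8 groups with more than 1 library, the highest mean lay in day 10 workers for 49 members, in hunting workers of run 1 for 24, in day 20 gamergates for 21, in hunting workers of run 4 and in day 20 workers for 7 each, in pupae for 6 and in duelers for 5. The lowest lay in pupae for 63 and in gamergates of run 4 for 50. The rule set gamergates of run 4 below hunting workers of that run. The count of 50 and the gap between the run 4 medians follow in part from it. Shares over all tested genes are not given for these counts. The values from different ages come from different runs, and age and run cannot be told apart.

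Late pupae had low levels of most members. Against day 10 workers 83 members were lower and 3 higher, where 26.5% and 30.4% of all tested genes were called, and the median log2 difference was -1.11 beside 0.01. On the TPM scale 61 were lower and 8 higher, with a median of -0.74 beside 0.45 for all genes. Among the 49 genes 34 were lower and 2 higher. Hexo1 showed the largest fall among the named members, from 20.6, 12.4, 26.4 and 24.8 FPKM to 0.0622, 0.666, 0.230 and 0.128 (-4.81, SE 0.24, adjusted p = 1.41e-16). LOC105186824 fell further, from 35.1 to 63.8 FPKM in day 10 workers to a pupal mean of 0.452 ± 0.316 (SD, n = 4), by -5.65 (adjusted p = 1.03e-13). It was among the abundant members at day 120, at 163 ± 38.7 FPKM in hunting workers of run 4 (n = 5) and 96.9 in gamergates. The 3 higher members were Tsp, Rab23 and LOC105187514. Tsp was at 11.4, 16.7, 19.8 and 25.1 FPKM in pupae, above every adult library (2.51, SE 0.38, adjusted p = 1.92e-06). Rab23, a small GTPase, was higher by 0.53 (adjusted p = 0.0492), with 16.7 FPKM in pupa replicate 2 and 4.00 to 6.89 in the others. Stage and run cannot be told apart in this comparison, and it shares its day 10 workers with the age comparison above.

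Lop2 (LOC105189781), a long-wavelength opsin by its symbol, was a member. It was at 21.7, 5.21, 5.08, 20.9 and 27.8 FPKM in hunting workers of run 4 and 36.98, 3.87, 4.62, 5.29 and 4.64 in gamergates, so both castes held libraries near 5 FPKM and libraries above 20. The highest library was a gamergate. The summed level of the 18 retina and optic lobe genes ranged from 124 to 461 FPKM in these hunting workers and from 76.6 to 818 in the gamergates. The cells behind the Lop2 values, and the part of retinal RNA in them, were not tested.

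Sums over the other marker lists were as follows. The 10 fat body and yolk genes, none of them members, summed to 2019 to 4029 FPKM in hunting workers and 3096 to 6381 in gamergates of run 4, with overlap. The head gland list of 10 genes summed to 144 to 358 and 61.7 to 139 FPKM, without overlap. Most of each sum was the member Qbp-1, which entered that list in the translation by hand to symbols. Qbp-1 accounted for 135 to 335 FPKM in hunting workers and 49.9 to 128 in gamergates, values that chose it as a member. Over the 5 tested genes of the list the median log2 difference in run 4 was -0.01. Sums of muscle genes (451 to 591 against 448 to 652 FPKM) and hemocyte genes (96.6 to 173 against 111 to 123) overlapped. So did those of cuticle genes (53.9 to 181 against 61.7 to 78.2), of which 8 of 42 were at 0, glia genes (719 to 893 against 784 to 986), Kenyon cell genes (750 to 1136 against 839 to 1173) and antennal genes (266 to 710 against 275 to 342). Their part in the members' differences was not tested.

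The pathway lists held few members. Besides the 4 oxidative phosphorylation genes, RpL39 and the 2 neuropeptides, the list of 29 lipid metabolism genes held Echs1, an enoyl-CoA hydratase of fatty acid oxidation. The 10 clock genes held Pdf. Both entered these lists when the lists were translated by hand to symbols. Echs1 was at 36.0 ± 6.27 FPKM in hunting workers and 25.4 ± 3.70 in gamergates of run 4 (n = 5 each), without overlap. In run 1 its difference was 0.11 (SE 0.49). None of the genes tested for sugar metabolism, mitochondrial ribosome, detoxification, biogenic amines, juvenile hormone and ecdysone, activity-regulated genes, synapse, axon guidance, protein folding, proteasome or transcription factors was a member.

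Over the 18 libraries of days 10 and 20, with group means removed, the median correlation between pairs of members was 0.21 across 7021 pairs, and 28.3% of pairs had r above 0.5, beside 17.1% of all pairs of tested genes. These points share runs, depth and library quality, and the value is a description. In the reference order 5 pairs of members were next to each other, namely LOC105189570 with GXIVsPLA2, LOC105187514 with myd, LOC105181154 with LOC105181155, LOC105186981 with LOC105186983 and LOC105183828 with LOC105183827.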

How the data were processed

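The values are FPKM per gene in 1 table of 37 libraries and 14001 genes, as deposited by the authors. The software was bcl2fastq, STAR and featureCounts, per the submitters' processing notes, with no version. The genome build is not given in the sources used here, and no coordinates are printed. Per the labels' protocols, polyadenylated RNA was made into strand-specific libraries. A reference table of assembly Hsal_v8.6 matched 13989 gene IDs and gave symbols. Whole reads were recovered from the steps of low FPKM values for 13445 of 13445 genes above 0, within 0.1 read.

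Runs 1 to 5 are the batch numbers of the labels' internal reference, each with a flow cell of its own. Members, lists and rules were chosen with earlier results of these data known. log2(FPKM + 0.5) was tested with limma 3.58.1 in R 4.3.3 (lmFit, eBayes with trend) on 9986 genes with FPKM of at least 1 in at least 4 libraries. One fit held all 37 libraries with 9 means of group within run. Adjusted p-values are two-sided Benjamini-Hochberg values over all genes tested, with 0.05 as the threshold, in 7 comparisons. A log2 difference is one of log2(FPKM + 0.5) and is too small for low genes. Lists first set up by product name and symbol were translated by hand to symbols of the reference. In that translation Pdf entered the clock list, Echs1 the lipid list and Qbp-1 the head gland list. Counting error is small beside the spread between libraries for genes with many reads. It cannot be assumed small for members with few reads, and the lowest count of a member in a hunting worker of run 4 was 1 read. No replicate pair among 64 was near identical, with a chi-square per gene of at least 11.9. The fits were also run on simulated counts with the same dispersion for every gene and no outlying library. That setting cannot show how they behave with libraries such as hunting worker replicate 7.

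Genes were named by rule: the 15 members with a symbol and a mean of at least 10 FPKM with the highest ratio, up to 5 called members with a symbol per test and direction, up to 3 per list, and the 3 unnamed members with the highest ratio. Library values are printed for the first 5 and for 8 members called in at least 2 tests, in the groups compared. Other members printed were chosen after their values were seen. Alternatives were other pseudocounts, filters, scalings, weights, limma-voom on recovered reads, fewer groups, a replicate block, each library left out, and other thresholds of the rule.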

Additional observations from a re-analysis of the deposited data

Results flagged for a closer look

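Among 120 groups of 4 or 5 libraries examined for 14 members and for the members' median, 12 held a library far from the rest. The test flags about 1 group in 20 for normal values, a rate that need not hold for FPKM. The day 120 values of run 4 also chose the members, so the count of 12 is not compared with chance. The members' median was 0.687 log2 units above the mean in hunting worker replicate 7 of run 4, with the other 4 at -0.213 to -0.034. The same library stood apart for sloth2 at 62.33 FPKM (others 23.25 to 29.58), LOC112590528 at 7.901 (others 3.349 to 4.209) and LOC105183872 at 19.94 (others 6.214 to 8.905). ImpL2 was at 44.41 FPKM in hunting worker replicate 3 of run 1, with the others at 17.10 to 20.28, and at 8.89 in pupa replicate 2, with the others at 2.393 to 3.434.

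LOC105189251 was at 0.07313 FPKM in pupa replicate 2 and at 0 in the other 3 pupae. LOC105186981 was at 1.414 FPKM in pupa replicate 1 and at most 0.04141 in the others. Day 20 worker replicate 1 held 57.97 FPKM of LOC112590528 (others at least 9.121) and 29.01 of LOC112588468 (others 4.73 to 8.295). Day 20 gamergate replicate 5 held 11.79 FPKM of LOC112588468, with the others at 4.111 to 6.118. Dueler replicate 2 held 30.65 FPKM of LOC105183872, with the others at 14.69 to 16.61.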

How the results depend on the processing

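The rule gave 345 genes at a lower ratio, 52 at a ratio of 1.6, 183 at a mean of 1 FPKM and 63 at a mean of 10 FPKM, and 52 to 212 when 1 library was left out, with the lowest count without hunting worker replicate 7. No caste test called a member when any library was left out. Calls of members were 1 (lower) in run 1 with limma-voom and with array weights, 3 (higher) at day 10 and 1 (lower) in the interaction with array weights. Hunting workers of run 1 against day 10 workers gave 31 calls on the TPM scale, 43 with array weights (13 higher and 30 lower) and 11 to 21 with a library left out, the highest without hunting worker replicate 3. The gamergate of run 1 against duelers gave 39 with array weights and 0 with a pseudocount of 0.1, with no filter, with a minimum of 5 FPKM, among the 49 genes and with any dueler left out. Pupae gave 36 calls among the 49 genes and 79 to 92 with a library left out, and on the TPM scale 69 among all members. The cause of these changes was not tested. Without hunting worker replicate 3 the median difference in run 1 was 0.389. Of 1322 values for named genes under alternatives, 1265 kept direction and side of the threshold, 44 lost the call, 13 gained it and 0 reversed. Of 36 called pairs of gene and test, 24 stayed called throughout and the others lost the call under at least 1 alternative. The split into 49 and 70 and the libraries left out of the rule and of the medians were chosen after seeing the data.

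With the replicate number as a block, calls were 0 in each caste test and the interaction, 16 in hunting workers against day 10 workers, 1 in the gamergate against duelers and 88 in pupae. Same-numbered libraries correlated at -0.128 to 0.178 at day 10 and 0.099 to 0.45 at day 20. Of 16 libraries, 4 were closest to their own number. The labels do not give nests, so whether same-numbered libraries were paired cannot be told from these values.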
